A study of Rattus norvegicus with 9 samples.

Results

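The genes described here copy DNA in S phase, the part of the cell cycle in which the genome is replicated: 40 genes that license origins, activate the replicative helicase, synthesise and join the new strands, supply nucleotides, rebuild chromatin and start S phase. They were found by gene name in the deposited table, and 39 of the 40 had a row among its 32883 genes. The gene with no row was E2f1, a transcription factor that activates many of the others. All 39 passed the filter on low counts, which kept 15068 genes.

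RNA was sequenced from synovium, the tissue that lines the joint, of Lewis rats. There were 3 libraries each of the groups labelled TZG, AIA and NC. Going by the series title, which concerns Tianhe Zhuifeng liquid extract and rheumatoid arthritis, TZG was taken to be the extract group, AIA the arthritis model and NC the control. Age, sex, dose, timing and the way arthritis was induced are not in the labels, nor is it stated that TZG rats had arthritis or that each library was a different animal. The p-values therefore compare the groups with the spread among their libraries, part or all of which may be technical.

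Origins of replication are licensed when the origin recognition complex, with Cdc6 and Cdt1, loads the ring-shaped MCM2-7 helicase onto DNA. In S phase Cdc45 and the GINS complex join that ring, and polymerases alpha, delta and epsilon copy both strands around the sliding clamp Pcna. Transcription of most of these genes is held down by retinoblastoma family proteins in resting cells and released through E2F factors when cyclin E, bound to its kinase, inactivates them. Adult synovial lining is largely resting tissue, and in arthritis it thickens and takes up immune cells.

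E2F factors bind short words in the promoters of these genes, so the promoters were read from RefSeq (build GRCr8) as 250 bases before to 50 bases after each gene's start. Of the 40 genes, 33 had an entry; Orc1, Cdc6, Mcm4, Gins4, Rrm2, E2f1 and Ccne2 had none. The letters TTTCCCGC or TTTGGCGC, searched on both strands, were in 12 of the 33 promoters, or 36.4%, against 420 of all 27457 promoters of the same length, or 1.53%. The 12 belonged to Cdt1, Mcm3, Mcm5, Mcm6, Mcm7, Gins1, Gins3, Pola1, Pole, Pole2, Rfc3 and Tyms. The words did not overlap a CCAAT or GGGCGG match in any of them. CCAAT was in 60.6% of the 33 promoters, against 37.7% of all promoters, and GGGCGG in 66.7%, against 34.9%. The promoters compared were not matched for base composition. A match is a description of these letters and not a binding site, and a window with no match says only that the letters are not there.

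Below are the matches in the MCM helicase genes and in the other genes whose values are given library by library, with 8 bases on each side. The strand shown is the one on which the word reads, and the E2F word is in capitals.
Mcm3, chr9:30733737-30733760, plus strand: tcccaagtTTTCCCGCcacggaag
Mcm5, chr19:13488797-13488820, plus strand: ggttggttTTTCCCGCgaaagtcg
Mcm5, chr19:13488596-13488619, minus strand: cgggacgtTTTGGCGCgaaacttc
Mcm6, chr13:42404476-42404499, minus strand: cgtctgctTTTGGCGCgaaattag
Mcm7, chr12:22163396-22163419, plus strand: gcacccgaTTTCCCGCggttcgaa
Gins3, chr19:9434700-9434723, plus strand: aaactcgtTTTCCCGCgcctcact
Pole2, chr6:93435337-93435360, plus strand: gtttgagaTTTGGCGCcaccgccg
Rfc3, chr12:5836567-5836590, minus strand: agacgagtTTTCCCGCgagcgcga

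Positions count the start as 1 and the base before it as -1. They give the first base of the match along the strand of the gene, whichever strand the word reads on. That base was at -8 in Mcm5, at -6 in Mcm3, at 8 in Rfc3, at 10 in Pole2 and at -36 in Gins3. For the other word in Mcm5 it was at -209, and for those in Mcm6 and Mcm7 at -139 and -233. Whole promoters of 3 genes show the contrast between genes that all stood higher in TZG than in NC libraries: Mcm5 has an E2F word at 2 places, Pole2 has 1 and Tk1 has none. Each reads 5′ to 3′ on the strand of its gene, with E2F words in capitals on either strand.
Mcm5, chr19:13488563-13488862, plus strand: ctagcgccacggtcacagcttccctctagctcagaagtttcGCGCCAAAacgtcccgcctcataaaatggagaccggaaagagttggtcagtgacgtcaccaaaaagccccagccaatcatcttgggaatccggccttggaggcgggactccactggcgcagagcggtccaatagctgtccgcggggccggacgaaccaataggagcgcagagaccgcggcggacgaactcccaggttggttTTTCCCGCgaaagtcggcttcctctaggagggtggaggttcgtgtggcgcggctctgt
Pole2, chr6:93435312-93435611, minus strand: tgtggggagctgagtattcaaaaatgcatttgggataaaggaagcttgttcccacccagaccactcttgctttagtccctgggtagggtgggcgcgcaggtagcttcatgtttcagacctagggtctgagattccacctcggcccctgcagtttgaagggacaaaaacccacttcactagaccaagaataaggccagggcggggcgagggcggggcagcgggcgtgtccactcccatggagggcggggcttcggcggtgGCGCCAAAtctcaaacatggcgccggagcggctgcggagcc
Tk1, chr10:103544728-103545027, minus strand: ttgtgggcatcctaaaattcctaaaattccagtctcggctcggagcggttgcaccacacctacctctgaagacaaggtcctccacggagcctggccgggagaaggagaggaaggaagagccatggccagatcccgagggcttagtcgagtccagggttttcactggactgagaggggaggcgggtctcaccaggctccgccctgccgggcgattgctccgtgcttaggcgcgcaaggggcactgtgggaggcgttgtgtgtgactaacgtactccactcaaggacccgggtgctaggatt

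Libraries held 12536231 to 16402126 reads counted to genes, so that 3 reads correspond to 0.183 to 0.239 CPM, the read count scaled to library size, in a library. Column names placed 5 of the 9 libraries by number and letter, and G31, G48, M2 and M8 by letter alone. Prg4, the lubricin gene of the synovial lining, stood at 1197 to 7303 CPM in all 9 libraries. Other tissue came along unevenly. Summed skeletal muscle markers were at 25923 CPM in NC library C61 and 1309 CPM in C59, against 82.4 CPM or less in the other 7, and summed cartilage markers were at 8517 CPM in TZG library G48, against 17.3 to 781 CPM elsewhere. Erythroid markers summed to 874 CPM in AIA library M8, against 7.29 to 115 CPM elsewhere. Results are therefore also given without C61, M8 and G48.

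Across the 3 groups the replication genes stood lowest in NC and highest in TZG. By group mean, 35 of the 39 had the order TZG, AIA, NC from high to low, Mcm10 had its highest mean in AIA, and Cdc45, Gins2 and Rfc1 had other orders. In TZG against NC, 25 of 39 rose and 1, Cdc45, fell (edgeR, adjusted p under 0.05), where 5.79% of all genes tested rose and 4.53% fell. In AIA against NC and in TZG against AIA none passed. Of all 15068 genes tested, 1 passed as higher and 1 as lower in AIA against NC, or 0.00664% each, and 0, or 0%, in TZG against AIA. The median log2 fold change of the 39 genes was 1.34 in TZG against NC, 0.66 in AIA against NC and 0.56 in TZG against AIA, beside medians of -0.02, -0.01 and 0.00 over all genes. The 3 comparisons share libraries and are not independent of each other. In RNA from whole tissue, more cells in S phase and more RNA per cell cannot be told apart.

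**Figure D1:**
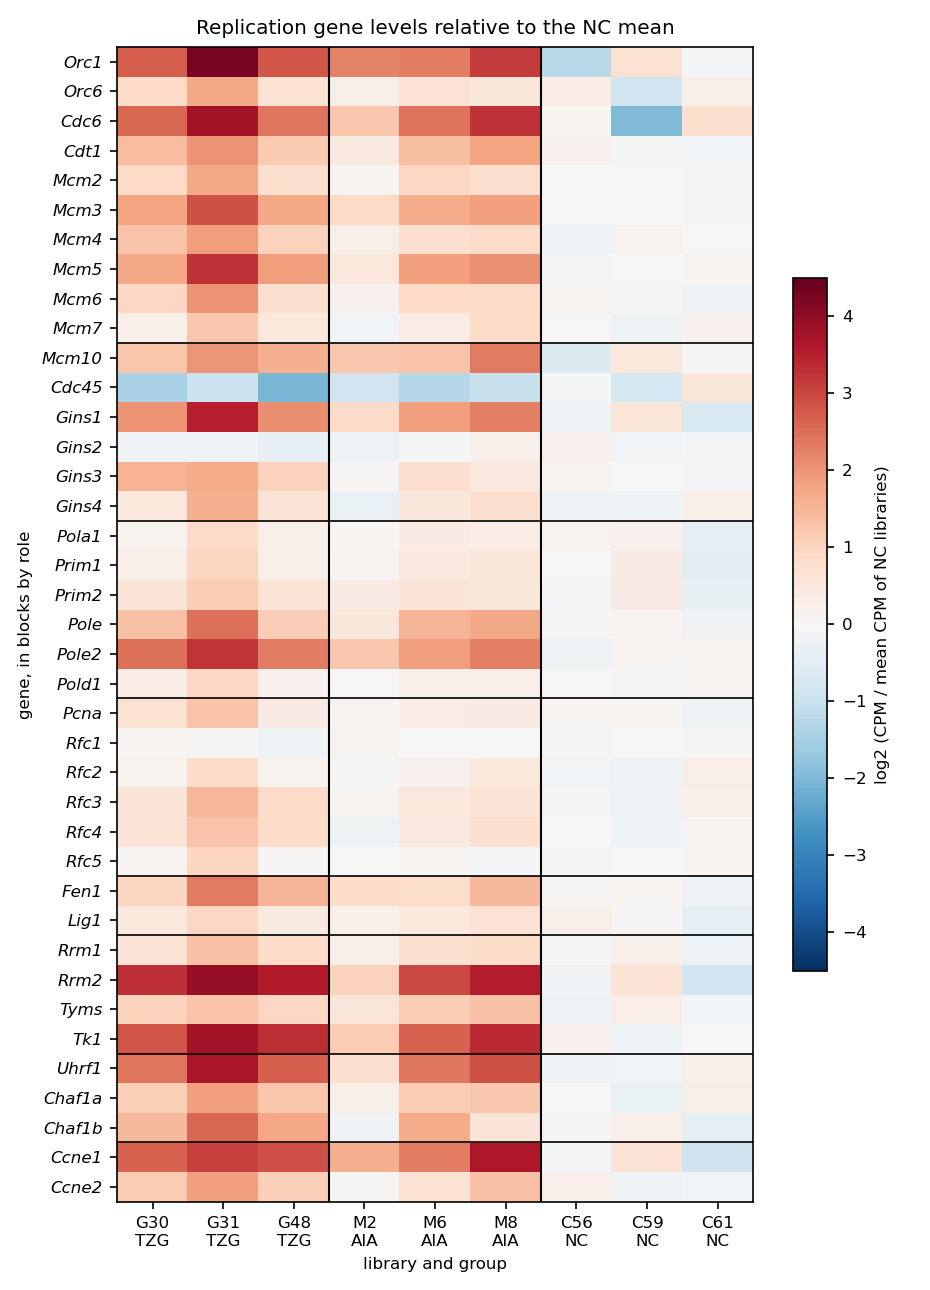
Level of each of the 39 replication genes (rows, in blocks by role) in each of the 9 libraries (columns), as log2 of its CPM over the mean CPM of the 3 NC libraries. Red is above and blue below the NC mean: the TZG columns are red for nearly all genes, deepest in G31, M2 is the palest AIA column, and the row of Cdc45 is blue in TZG and AIA.

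Libraries of a group were not alike. The median level of the 39 genes, as log2(CPM + 0.25), was 3.85, 4.67 and 3.91 in TZG libraries G30, G31 and G48, 3.19, 3.84 and 4.12 in AIA libraries M2, M6 and M8, and 2.88, 2.92 and 2.82 in NC libraries C56, C59 and C61. G31 was the highest of all 9 libraries for 33 of the 39 genes, and M2 the lowest AIA library for 35. The NC libraries lay close together in this median, while TZG and AIA overlapped, since M8 stood above G30 and G48.

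Origin licensing was the largest set. In TZG against NC 8 of its 10 genes rose, with a median log2 fold change of 1.5. Orc1 is a subunit of the origin recognition complex that binds ATP and comes and goes with the cell cycle. It averaged 4.93 ± 3.23 CPM in TZG and 0.452 ± 0.267 CPM in NC libraries (SD, n = 3 each). That is a log2 fold change of 3.42 ± 0.63 (SE, edgeR adjusted p = 0.019), resting on 219 reads in TZG and 19 reads in NC libraries together. Cdc6 and Cdt1, the loaders of the helicase, rose by 3.08 ± 0.74 (adjusted p = 0.036) and 1.56 ± 0.35 (adjusted p = 0.03) on the log2 scale. The Cdc6 value rested on 289 reads in TZG and 31 reads in NC libraries together. Orc6, another subunit of the recognition complex, had 5.53, 9.9 and 4.79 CPM in TZG libraries, 3.59, 4.75 and 4.27 CPM in AIA libraries and 3.74, 1.65 and 3.62 CPM in NC libraries. Its TZG libraries were all above its NC libraries, and its log2 fold change of 1.17 ± 0.39 did not pass (adjusted p = 0.087).

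The MCM2-7 helicase has 6 subunits that act as 1 ring, and 5 of them rose in TZG against NC. Mcm3 had 34.5, 73.4 and 33.8 CPM in TZG libraries, 18.3, 32.5 and 36.7 CPM in AIA libraries and 10, 9.87 and 10.4 CPM in NC libraries. The NC libraries were nearly equal, and every TZG and AIA library stood above them. Its log2 fold change was 2.22 ± 0.36 in TZG against NC (adjusted p = 0.015) and 1.53 ± 0.36 in AIA against NC (adjusted p = 0.11). Mcm4 had 43.5, 65.7 and 37.3 CPM in TZG libraries, 21.9, 30.1 and 32.9 CPM in AIA libraries and 15.9, 20.3 and 17.7 CPM in NC libraries, so that the 3 groups did not overlap. Its log2 fold change was 1.44 ± 0.24 in TZG against NC (adjusted p = 0.015) and 0.78 ± 0.23 in TZG against AIA (adjusted p = 0.31). The other subunits that rose were Mcm5 by 2.46 ± 0.51 (adjusted p = 0.024), Mcm6 by 1.34 ± 0.34 (adjusted p = 0.042) and Mcm2 by 1.19 ± 0.28 (adjusted p = 0.035). Mcm7 stood at 0.71 ± 0.31 (adjusted p = 0.17). Its locus also holds Mir25, Mir93 and Mir106b, each with 6 reads or fewer in every library.

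Per gene length the subunits of the ring lay closer to each other in TZG than in NC libraries. In FPKM, a read count scaled by gene length and library total, Mcm5 was the lowest and Mcm7 the highest of the 6 by group mean in each group. Mcm5 averaged 12.5 ± 8.38 FPKM in TZG, 6.84 ± 3.27 FPKM in AIA and 2.13 ± 0.0183 FPKM in NC libraries. Mcm7 averaged 24.2 ± 9.89 FPKM in TZG, 19.7 ± 6.61 FPKM in AIA and 13.9 ± 1.43 FPKM in NC libraries. Within a library, the highest subunit stood 2.32, 1.72 and 2.5 times above the lowest in TZG, 4.34, 2.33 and 2.87 times in AIA and 6.82, 5.71 and 7.07 times in NC. The TZG and NC ratios did not overlap. These ratios rest on gene lengths recovered from the deposited FPKM values and were not tested.

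**Figure D2:**
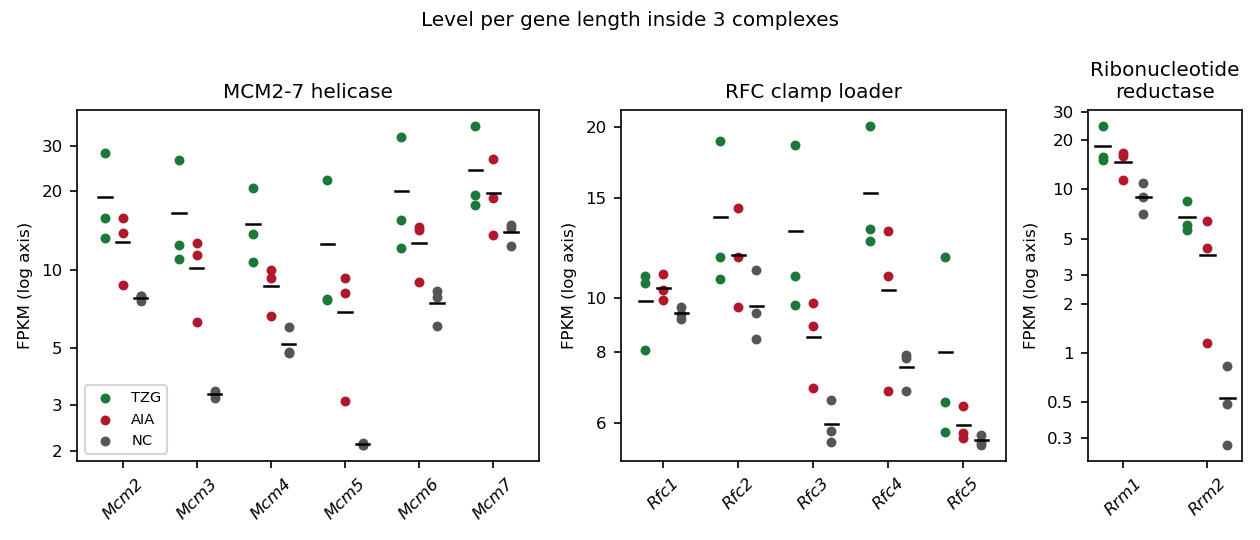
Level per gene length (FPKM, log axis) of the subunits of the MCM2-7 helicase, the RFC clamp loader and ribonucleotide reductase, with a point per library and a bar at the mean of 3 libraries for TZG, AIA and NC. The MCM subunits and Rrm1 and Rrm2 lie further apart in NC than in TZG, and the RFC subunits lie at similar distances in all groups.

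The genes that turn the loaded ring into an active helicase were mixed. Of 6, 3 rose and 1 fell in TZG against NC, with a median log2 fold change of 1.22. Mcm10, which is needed for the ring to start unwinding, had 8.73, 14.7 and 11.2 CPM in TZG libraries, 8.58, 9.09 and 19 CPM in AIA libraries and 2.35, 5.2 and 3.62 CPM in NC libraries. TZG and AIA overlapped, and both stood above NC. The log2 fold change was 1.63 ± 0.41 in TZG against NC (adjusted p = 0.04), 1.72 ± 0.41 in AIA against NC (adjusted p = 0.12) and -0.08 ± 0.39 in TZG against AIA (adjusted p = 0.95).

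The GINS complex has 4 subunits, and they did not move alike. Gins1 rose by 2.68 ± 0.57 in TZG against NC on the log2 scale (adjusted p = 0.026). Gins3 had 6.13, 6.64 and 4.22 CPM in TZG libraries, 2.13, 3.53 and 2.83 CPM in AIA libraries and 2.22, 2.04 and 1.94 CPM in NC libraries. It rose by 1.45 ± 0.29 in TZG against NC (adjusted p = 0.021), and its TZG libraries also lay above all AIA libraries, by 1.0 ± 0.28 (adjusted p = 0.29). Gins4 stood at 0.99 ± 0.38 in TZG against NC (adjusted p = 0.12). Gins2 had 26.8, 25.3 and 22.9 CPM in TZG libraries, 25.1, 27.7 and 34.8 CPM in AIA libraries and 34.4, 27.1 and 28.1 CPM in NC libraries. Its level was thus a little below NC in TZG, with a log2 fold change of -0.26 ± 0.16 (adjusted p = 0.31) and no overlap between the TZG and NC libraries. The length the deposited table uses for Gins2 was 4.19 kb, against 1.08, 2.39 and 1.06 kb for Gins1, Gins3 and Gins4.

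Cdc45, which completes the active helicase, was the exception among the replication genes and is described outside the rule for naming genes. Its counts were 882, 1187 and 610 reads in TZG libraries, 1187, 987 and 1174 reads in AIA libraries and 2455, 1407 and 2699 reads in NC libraries. It averaged 60 ± 21.6 CPM in TZG and 162 ± 72.9 CPM in NC libraries (SD, n = 3 each), a log2 fold change of -1.43 ± 0.36 (adjusted p = 0.041). In AIA against NC its log2 fold change was -1.05 ± 0.36 (adjusted p = 0.22). The deposited locus of Cdc45, 11:86329012-86358453, contains the whole locus of Cldn5, 11:86356294-86357718, a tight junction gene of endothelium. Cldn5 was listed at 0 reads in 8 libraries and at 477 reads in G48, the library with the fewest Cdc45 reads. How reads of the shared stretch were divided between the rows is not stated, and which gene the Cdc45 counts stand for is uncertain. Summed over the pair of rows, the log2 fold change was -1.21 ± 0.306 in TZG against NC (adjusted p = 0.0419). For Cdc45 alone it was -0.81 ± 0.288 without C61, M8 and G48 (adjusted p = 0.112), and in 8 of the 9 fits that left out 1 library Cdc45 did not pass. Markers of endothelium summed to 1388 to 1625 CPM in TZG, 1781 to 2031 CPM in AIA and 1610 to 2201 CPM in NC libraries. Their part in the Cdc45 result was not tested.

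Of the polymerase and primase genes 2 of 6 rose in TZG against NC, both of them subunits of polymerase epsilon, which copies the leading strand. Pole2, its accessory subunit, had 3.73, 6.16 and 3.32 CPM in TZG libraries, 1.54, 2.44 and 3.24 CPM in AIA libraries and 0.571, 0.724 and 0.706 CPM in NC libraries. The 3 groups did not overlap, though the lowest TZG and the highest AIA library were close. Pole2 had the smallest p of the replication genes in TZG against NC, at 2.71 ± 0.40 (adjusted p = 0.014), and stood at 1.84 ± 0.40 in AIA against NC (adjusted p = 0.1). Pole, the catalytic subunit, rose by 1.77 ± 0.42 in TZG against NC (adjusted p = 0.035). Pold1, the catalytic subunit of polymerase delta, had 21.9, 33.5 and 20.1 CPM in TZG libraries, 17.4, 20.8 and 21.5 CPM in AIA libraries and 17.7, 16.2 and 18.3 CPM in NC libraries. Its log2 fold change was 0.53 ± 0.20 in TZG against NC (adjusted p = 0.12). The genes of the polymerase alpha and primase complex, which lays the primers, did not pass either: Pola1 at 0.46 ± 0.23 (adjusted p = 0.21), Prim1 at 0.54 ± 0.27 (adjusted p = 0.22) and Prim2 at 0.78 ± 0.23 (adjusted p = 0.061).

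Among the clamp and its loader 2 of 6 genes rose in TZG against NC. Pcna, the sliding clamp, had 80.9, 124 and 65.7 CPM in TZG libraries, 55, 63.3 and 65.8 CPM in AIA libraries and 53.7, 53.3 and 44.5 CPM in NC libraries. It rose by 0.84 ± 0.22 in TZG against NC (adjusted p = 0.045). Per gene length it stood highest of the 39 genes by mean in each group, at 79.9 ± 29.7 FPKM in TZG, 53.9 ± 5.13 FPKM in AIA and 42.1 ± 6.38 FPKM in NC. The RFC complex places the clamp on DNA. Rfc3 had 12, 23 and 14.8 CPM in TZG libraries, 8.87, 11.2 and 12.5 CPM in AIA libraries and 7.55, 7.31 and 9.44 CPM in NC libraries, and rose by 1.04 ± 0.26 in TZG against NC (adjusted p = 0.041). Rfc5 had 14.3, 25.9 and 14 CPM in TZG libraries, 13.1, 14.4 and 12.9 CPM in AIA libraries and 12.7, 13.4 and 14.2 CPM in NC libraries. Only G31 stood apart for Rfc5, and its log2 fold change was 0.43 ± 0.24 (adjusted p = 0.26). Rfc4 stood at 0.94 ± 0.27 (adjusted p = 0.057) and Rfc2 at 0.42 ± 0.24 (adjusted p = 0.29). Rfc1, the large subunit, averaged 49.9 ± 5.37 CPM in TZG, 52.7 ± 2.93 CPM in AIA and 50.5 ± 2.01 CPM in NC libraries, a log2 fold change of -0.02 ± 0.11 in TZG against NC (adjusted p = 0.94). The locus of Rfc1 overlaps AABR07015003.1, with 13 to 53 reads a library. How shared reads were divided is not stated, so the Rfc1 counts are uncertain by an unknown amount. Within a library, the highest RFC subunit stood 1.71 to 2.54 times above the lowest per gene length over all 9 libraries.

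Fen1 and Lig1 trim and join the short fragments of the lagging strand. Fen1 had 12.1, 31.4 and 18.2 CPM in TZG libraries, 11, 10.9 and 17 CPM in AIA libraries and 6.53, 6.65 and 5.56 CPM in NC libraries. All TZG and AIA libraries were above the NC libraries, and Fen1 rose by 1.72 ± 0.35 in TZG against NC (adjusted p = 0.023). Lig1 stood at 0.61 ± 0.24 (adjusted p = 0.13).

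All 4 genes of nucleotide supply rose in TZG against NC, with a median log2 fold change of 2.22, the highest of the 8 roles. Tk1, the thymidine kinase of dividing cells, had 25.9, 48.7 and 36.7 CPM in TZG libraries, 8.06, 23.3 and 37.3 CPM in AIA libraries and 4.19, 3.09 and 3.7 CPM in NC libraries. Every TZG and AIA library was above every NC library, and the AIA libraries spanned a wide range. Its log2 fold change was 3.34 ± 0.52 in TZG against NC (adjusted p = 0.014), 2.64 ± 0.51 in AIA against NC (adjusted p = 0.099, the smallest of the replication genes there) and 0.70 ± 0.47 in TZG against AIA (adjusted p = 0.55). Tyms, which makes thymidylate, rose by 1.09 ± 0.24 in TZG against NC (adjusted p = 0.027).

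Ribonucleotide reductase, which makes the deoxynucleotides, pairs the large subunit Rrm1 with the small subunit Rrm2. Rrm2 averaged 7.76 ± 1.66 CPM in TZG, 4.6 ± 3.08 CPM in AIA and 0.637 ± 0.322 CPM in NC libraries (SD, n = 3 each), a log2 fold change of 3.56 ± 0.64 in TZG against NC (adjusted p = 0.018). It was the largest fold change of the 39 genes, and it rested on 349 reads in TZG and 28 reads in NC libraries together. Rrm1 had 59.1, 95.1 and 67.7 CPM in TZG libraries, 46.3, 63.4 and 67.8 CPM in AIA libraries and 37.1, 45.4 and 31.9 CPM in NC libraries, and rose by 0.95 ± 0.22 in TZG against NC (adjusted p = 0.033). Per gene length, Rrm1 stood 2.71, 2.86 and 2.6 times above Rrm2 in TZG libraries, 10.1, 3.62 and 2.61 times in AIA libraries and 18.6, 13.2 and 26 times in NC libraries. The ratio was lower in all TZG libraries than in any NC library, and M2 was the AIA library nearest to NC.

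**Figure D3:**
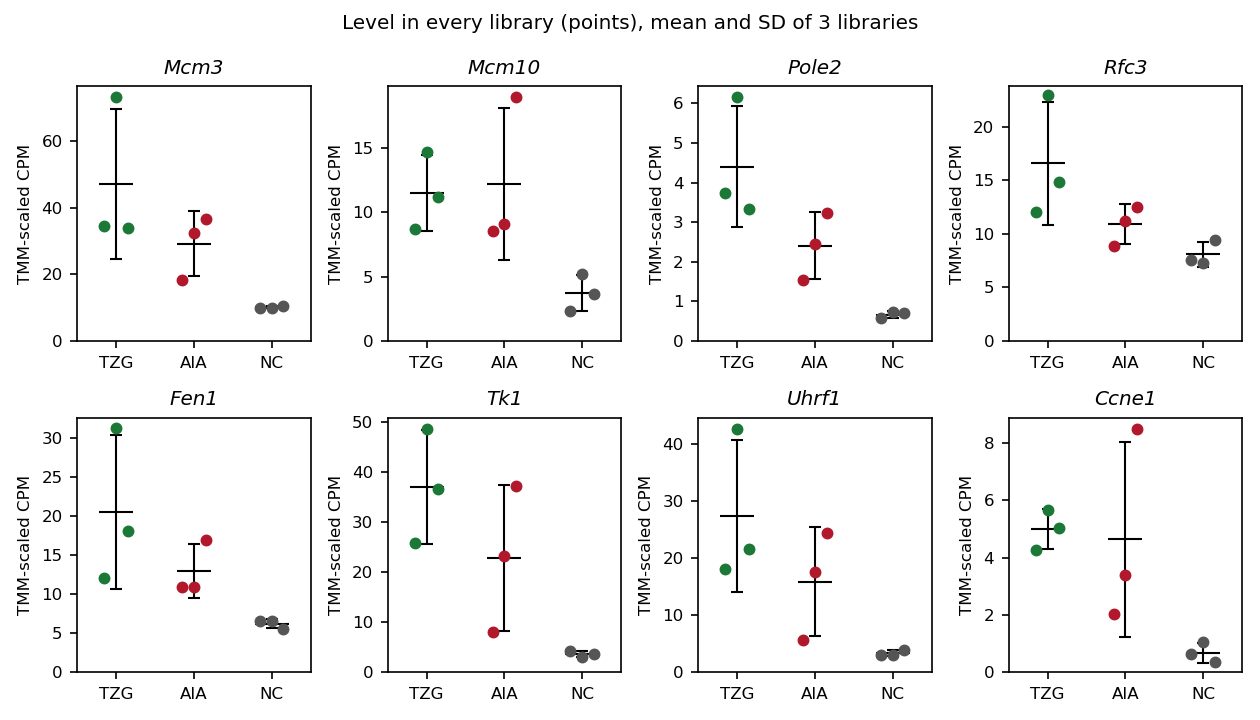
TMM-scaled CPM of the replication gene with the smallest p in AIA against NC in each of the 8 roles, with a point per library and the mean and SD of 3 libraries for TZG, AIA and NC. The NC libraries lie low and close together, TZG libraries lie above them in every panel, and G31 is the highest TZG point throughout.

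All 3 genes that rebuild or maintain chromatin behind the fork rose in TZG against NC. Uhrf1, which carries DNA methylation over to the new strand, had 18.1, 42.6 and 21.6 CPM in TZG libraries, 5.72, 17.5 and 24.4 CPM in AIA libraries and 3.04, 3.09 and 3.97 CPM in NC libraries. It rose by 3.03 ± 0.54 in TZG against NC (adjusted p = 0.018) and stood at 2.24 ± 0.53 in AIA against NC (adjusted p = 0.12). Chaf1b, a subunit of the histone chaperone CAF-1, had 4.27, 9.27 and 5.24 CPM in TZG libraries, 1.39, 4.95 and 2.34 CPM in AIA libraries and 1.59, 1.91 and 1.15 CPM in NC libraries. The AIA and NC libraries overlapped, the TZG and NC libraries did not, and Chaf1b rose by 2.0 ± 0.51 in TZG against NC (adjusted p = 0.041). Chaf1a, the largest subunit of the same complex, rose by 1.43 ± 0.31 (adjusted p = 0.026).

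Cyclin E brings cells into S phase, and both of its genes rose in TZG against NC. Ccne1 had 4.27, 5.67 and 5.05 CPM in TZG libraries, 2.05, 3.39 and 8.48 CPM in AIA libraries and 0.634, 1.05 and 0.353 CPM in NC libraries. TZG and AIA overlapped and both lay above NC, with a log2 fold change of 2.84 ± 0.58 in TZG against NC (adjusted p = 0.024) and 2.73 ± 0.58 in AIA against NC (adjusted p = 0.1). Ccne2 rose by 1.39 ± 0.35 in TZG against NC (adjusted p = 0.04), and its locus overlaps the end of Ints8, a gene with 334 to 608 reads a library, so that its counts are uncertain.

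**Figure D4:**
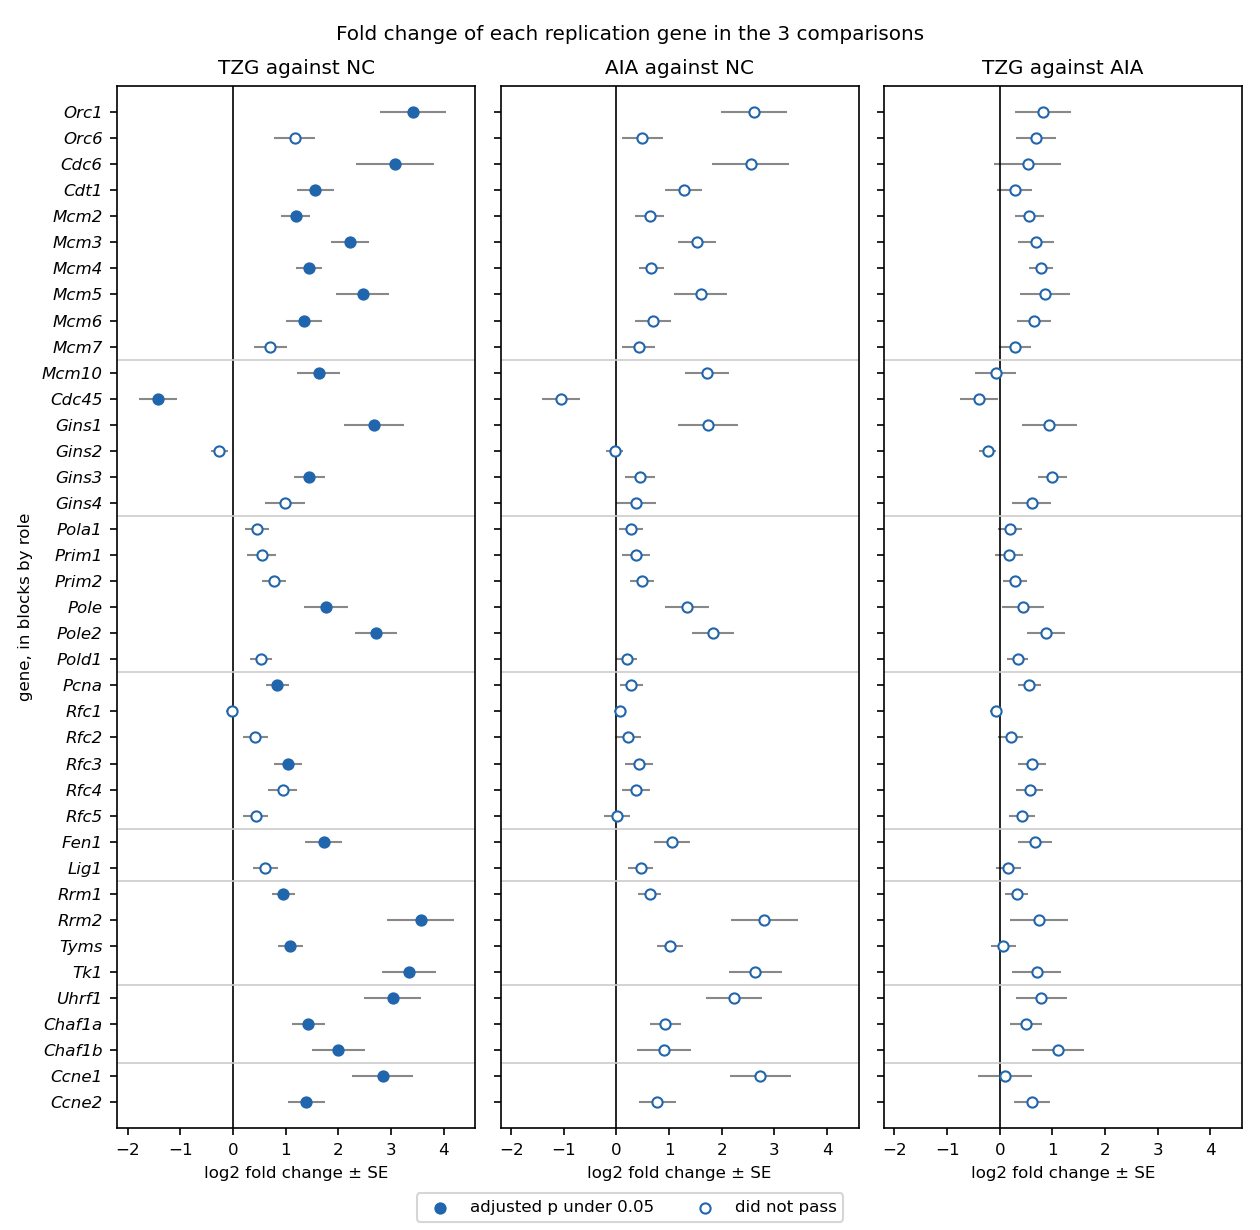
Log2 fold change with its SE for each of the 39 replication genes in TZG against NC, AIA against NC and TZG against AIA (edgeR). Filled points passed an adjusted p of 0.05: 26 in the first panel, of which only Cdc45 lies below 0, and none in the others, where most points still lie above 0.

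In TZG against NC, 32 of the 39 genes had every TZG library above every NC library, which held for 17.4% of all genes, and 2, Cdc45 and Gins2, had every TZG library below, which held for 15.2%. The 12 with an E2F word in the promoter held 10 that rose and none that fell, with a median log2 fold change of 1.5. The 21 with a promoter entry and no such word held 10 that rose and 1 that fell, with a median of 0.94, and this difference was not tested. The authors' deposited table, with a q under 0.05, had 23 of the 39 genes higher and 1 lower, where 5.56% and 2.97% of the genes it gives a q for passed. All 23 were among the 25 found here, and Pcna and Rfc3 were the other two. DESeq2 had 28 higher and 1 lower, beside 10.9% and 8.8%. Without C61, M8 and G48, 21 rose in edgeR and none fell, beside 7.7% and 6.67% of all genes. Leaving out 1 library at a time gave fewer calls, among the 39 genes and over the whole table. The count of the 39 that rose was 2 without C56, 12 without C59 and 11 without C61, beside 0.976%, 2.65% and 3.72% of all genes. It was 13 without G30, 7 without G31 and 20 without G48, beside 2.45%, 2.06% and 3.84% of all genes. It was 22 without M2, 16 without M6 and 20 without M8, beside 4.43%, 3.87% and 5.37% of all genes. Pole2 and Tk1 passed in all 9 such fits.

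In AIA against NC, 37 of the 39 genes had a positive log2 fold change and 22 had every AIA library above every NC library, which held for 11.2% of all genes. Cdc45 had every AIA library below, which held for 9.22%. At an unadjusted p under 0.05, 18 were higher and 1 lower, beside 8.26% and 6.77% of all genes, and none passed after adjustment. Nucleotide supply had the highest median by role, at 1.83, followed by S phase entry at 1.75, origin licensing at 0.99 and the chromatin genes at 0.93. Okazaki fragment joining stood at 0.75, the polymerases at 0.43, helicase activation at 0.41 and the clamp and its loader at 0.25. Rfc5 was the gene with the largest p, at 0.01 ± 0.24 (adjusted p = 0.99).

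The number of calls in AIA against NC differed between the fits and the authors' deposited table, and the cause was not tested. DESeq2 had 13 of the 39 genes higher and none lower, beside 3.89% and 2.37% of all genes: Ccne1, Cdc6, Cdt1, Mcm10, Mcm3, Mcm5, Orc1, Pole, Pole2, Rrm2, Tk1, Tyms and Uhrf1. The authors' deposited table had 12 higher, beside 2.82% of its genes, which were these without Tyms, and 1 lower, Cdc45, beside 1.5%. In edgeR without M2, the AIA library with the lowest levels, Rrm2, Tk1 and Uhrf1 passed as higher, and the share of all genes that did so was 0.585% in that fit.

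In TZG against AIA the question is whether the extract group differed from the model, and no replication gene passed in edgeR. None passed in DESeq2, where 1.11% of all genes were higher and 1.14% lower, or in the authors' deposited table, where 0.407% were higher and 0.171% lower. A positive log2 fold change was found for 35 of 39, and 6 were higher at an unadjusted p under 0.05, beside 6.2% of all genes, while none was lower, beside 6.37%. Every TZG library was above every AIA library for 5 genes, Orc6, Mcm4, Gins3, Prim2 and Pole2, where this held for 10.7% of all genes, and below for none, where it held for 12.7%. Gins3, Mcm4 and Pcna had the smallest p, with log2 fold changes of 1.0 ± 0.28, 0.78 ± 0.23 and 0.56 ± 0.22 and adjusted p of 0.29, 0.31 and 0.36. The median of 0.56 rested on G31 and M2: it was 0.16 without G31 and 0.32 without M2, and 0.85 without C61, M8 and G48. With only the 5 libraries placed by number it was 0.05.

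Other replication genes were listed apart from the 39. Of 52 with a row, 13 rose and none fell in TZG against NC, beside 5.79% and 4.53% of all genes tested. A positive log2 fold change was found for 43 of the 52, and the median of the 52 was 0.67. The difference between the lists was not tested. The 13 were Gmnn, Donson, Rpa3, Timeless, Clspn, Chtf18, Top1, Asf1b, Slbp, Cdc25a, Ccna2, E2f8 and Rbl1. Among those that did not pass were Orc2, Orc3, Orc4 and Orc5, at -0.09, -0.02, 0.15 and 0.07. Pola2 stood at -0.12, Pold2, Pold3 and Pold4 at 0.15, 0.22 and -0.14, and Rpa1 and Rpa2 at 0.04 and 0.28. E2f8, a repressor of the E2F family that is itself made in S phase, had 4.73, 8.72 and 7.67 CPM in TZG libraries, 2.27, 2.99 and 12.6 CPM in AIA libraries and 0.254, 0.132 and 0.176 CPM in NC libraries. Its log2 fold change was 5.16 ± 0.82 in TZG against NC (adjusted p = 0.014) and 4.92 ± 0.81 in AIA against NC (adjusted p = 0.078). The NC values lay near the level of 3 reads, 0.19 to 0.239 CPM in those libraries, so the size of both changes is uncertain. Asf1b, a histone chaperone, rose by 3.46 ± 0.55 (adjusted p = 0.014) and Ccna2, the cyclin A of S phase, by 3.27 ± 0.60 (adjusted p = 0.019) in TZG against NC. In TZG against AIA the smallest p were those of Donson, a factor in origin firing, Rbl1, a retinoblastoma relative, and Dctpp1, which clears modified nucleotides. Their log2 fold changes were 1.08 ± 0.37, 0.87 ± 0.35 and 1.04 ± 0.46, with adjusted p of 0.32, 0.37 and 0.4. A separate list held other E2F repressors, pocket proteins and kinase inhibitors. E2f7, E2f8 and Rbl1 were counted among the other replication genes and not in it. In TZG against NC Rbl1 rose by 1.62 ± 0.36 (edgeR adjusted p = 0.028), like E2f8, and E2f7 stood at 1.87 ± 0.51 (adjusted p = 0.051). Of the separate list 10 genes were tested and none passed in the 3 comparisons. Their medians were 0.15 in TZG against NC, 0.01 in AIA against NC and 0.05 in TZG against AIA. In AIA against NC and in TZG against AIA none of the 10 had an unadjusted p under 0.05. Of all genes 8.26% were higher and 6.77% lower at that level in AIA against NC, and 6.2% and 6.37% in TZG against AIA. With 10 genes these shares leave few to be found, so the absence does not set the list apart. In TZG against NC only E2f4 had such a p, at 0.42 ± 0.15 (edgeR adjusted p = 0.098), and the share of all genes was not computed.

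Some markers of mitosis, of blood-forming cells and of lymphocytes also rose in TZG against NC, where 5.79% of all genes tested rose. All 11 mitosis genes rose in TZG against NC, with a median log2 fold change of 3.07, and their summed level was 262, 404 and 391 CPM in TZG libraries, 104, 237 and 433 CPM in AIA libraries and 52.6, 54.5 and 34.8 CPM in NC libraries. Granulocyte precursors divide, and their markers summed to 454, 104 and 582 CPM in TZG libraries, 136, 152 and 657 CPM in AIA libraries and 40.2, 58.7 and 111 CPM in NC libraries. Of the 7 genes 3 rose in TZG against NC. In NC libraries most of that sum was Mpo, at 38.8, 56.2 and 108 CPM, and the defining markers Elane, Prtn3, Ctsg and Ms4a3 were at or near 0. The sum in G31, where the replication genes stood highest, was the lowest of the TZG libraries, with Elane at 3.18 CPM there, against 38.7 CPM in G30 and 51.3 CPM in G48. Erythroid markers summed to 115, 91 and 92.4 CPM in TZG libraries, 95.7, 75.7 and 874 CPM in AIA libraries and 7.29, 10.3 and 15.7 CPM in NC libraries, with 4 of 9 higher in TZG against NC. Neutrophil markers summed to 755, 466 and 3463 CPM in TZG libraries, 284, 408 and 2457 CPM in AIA libraries and 23, 15.7 and 34.8 CPM in NC libraries, with 7 of 8 higher in TZG against NC. Markers of T and NK cells summed to 154, 105 and 185 CPM in TZG libraries, 151, 182 and 125 CPM in AIA libraries and 148, 199 and 37 CPM in NC libraries. Most of that sum was Cd4, which rat macrophages also express, at 107, 63 and 118 CPM in TZG libraries, 130, 142 and 85.6 CPM in AIA libraries and 144, 194 and 32.3 CPM in NC libraries. Without Cd4 the sum was 46.8, 41.9 and 66.9 CPM in TZG libraries, 20.2, 39.9 and 39.2 CPM in AIA libraries and 4.31, 4.67 and 4.76 CPM in NC libraries, and 5 of the 9 genes tested rose in TZG against NC. Among TZG libraries that sum was lowest in G31, as were Cd3d, Cd3e, Nkg7 and Prf1, while Cd2 was highest there. Nkg7 had 14.9, 2.63 and 26.2 CPM in G30, G31 and G48. Cd8a was also highest in G31, like most replication genes. It had 13.1, 25.2 and 19.4 CPM in TZG libraries, 3.66, 9.84 and 4.89 CPM in AIA libraries and 0.444, 0.79 and 0.617 CPM in NC libraries. Its TZG libraries did not overlap its AIA libraries, with a log2 fold change of 1.65 ± 0.39 (adjusted p = 0.26), and it was singled out after its values were seen. Markers of B and plasma cells summed to 42.9, 12.8 and 108 CPM in TZG libraries, 8.87, 19.3 and 96.1 CPM in AIA libraries and 1.65, 1.97 and 3.35 CPM in NC libraries. Of the 7 genes tested, 1 rose in TZG against NC, Jchain, which links antibody units. Of 9 macrophage, 10 synovial fibroblast, 6 adipocyte and 6 endothelium genes none rose in TZG against NC. Their median log2 fold changes were 0.50, 0.04, -0.84 and -0.59. The synovial fibroblast gene Clic5 fell, as did 2 endothelium genes, where 4.53% of all genes tested fell. The part of any of these cells in the levels of the replication genes was not tested.

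**Figure D5:**
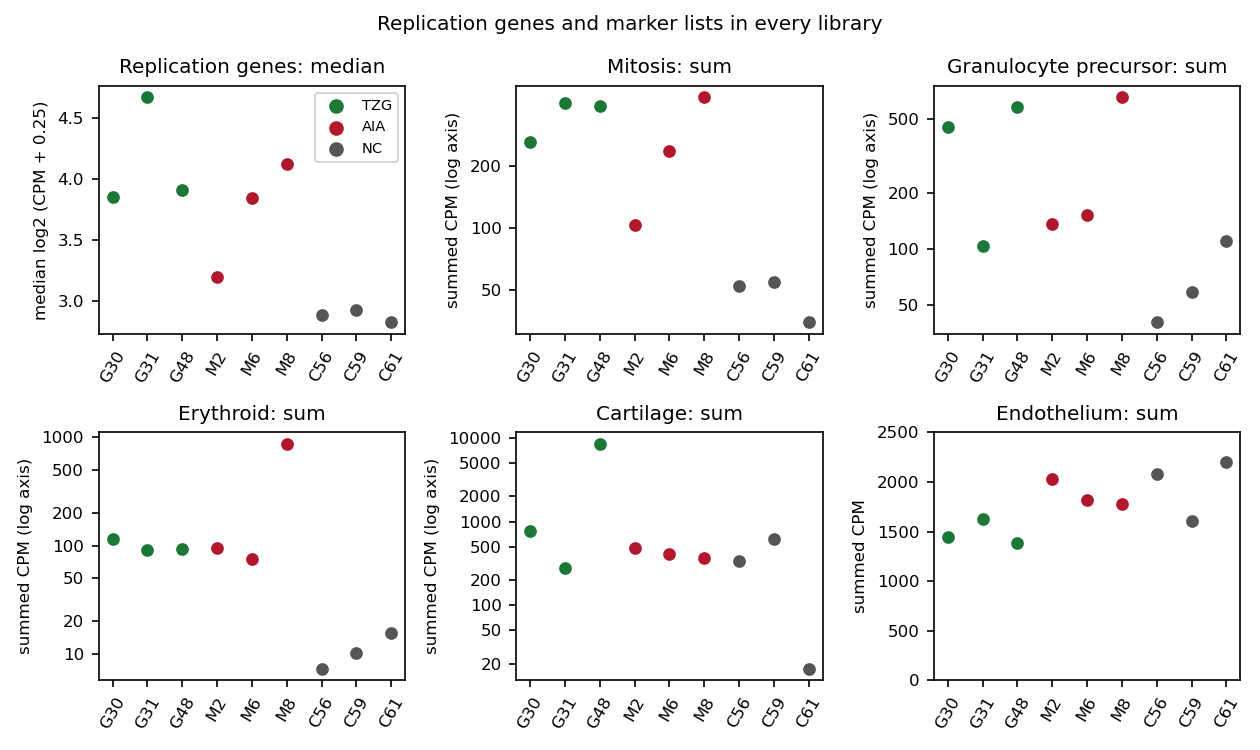
Median log2(CPM + 0.25) of the 39 replication genes and summed CPM of 5 marker lists in each library, coloured by group (log axes except for the first and last panel). G31 is the highest library for the replication genes and the lowest TZG library for granulocyte precursor and cartilage markers, and M8 stands apart for erythroid markers.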

How the data were processed

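Synovial RNA of Lewis rats was sequenced in 3 libraries each of TZG, AIA and NC, made with a SMARTER mRNA-Seq kit from RNeasy extracts, per the labels' protocols. The deposited values are unscaled whole-number counts per gene, per the file headers, and FPKM, which equal each count over a gene length and the library total. The authors also deposited a log2 fold change and a q-value for each comparison. The submitters' processing notes list edgeR 3.30.3, StringTie 1.3.3b, HISAT2 and fastp. Build, annotation and strand setting: not given in the sources used here; gene coordinates are as deposited. Both deposited tables hold the same bytes, and 1 was read.

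Column numbers of G31, G48, M2 and M8 match no sample title of their group, so these 4 were placed by letter and their 4 FPKM columns were not used. The authors' group means matched this placing, with a largest relative difference of 0.00073. Every pair of libraries differed by more than sampling noise (chi-square at least 20.3 per gene), so none was a copy of another. This does not show that they came from different animals. Each was counted as 1 replicate.

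Counts were fitted with edgeR 4.0.16 (R 4.3.3): TMM factors, filterByExpr, robust quasi-likelihood, all 9 libraries in one fit and Benjamini-Hochberg adjustment over 15068 genes. SE is the size of the log2 fold change over the root of its F value. CPM is TMM-scaled and given as mean ± SD. FPKM was recomputed from counts and recovered lengths. The fit was tested on simulated data. Alternatives were other scaling factors, DESeq2 1.42.0, limma-voom (limma 3.58.1), other filters, 2 groups alone, limma on log2(FPKM + 0.1) and log2(FPKM + 1), libraries left out, the 5 libraries placed by number and, chosen after seeing the data, Cdc45 and Cldn5 counts summed.

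The genes and lists were chosen with earlier results of these data known. Library values are given for the smallest and largest p of each role in AIA against NC and the 3 smallest p of each other comparison; 3 genes per comparison were named from the other replication genes. The other genes are given by their test. The means of Orc1, Rrm2, Rfc1 and Mcm7 and the library values of Cdc45 were added after seeing the values. So were the full list of other replication genes that rose and the further genes named from that list. Limits of a count of 0 (3 reads) cover counting error only.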

Additional observations from a re-analysis of the deposited data

How the results depend on the processing

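No paired analysis was possible because the labels give no replicate number, litter or batch shared between groups. The count of 25 replication genes that rose in TZG against NC was 14 with limma-voom, where 631 of 15068 genes rose. It was 2 to 22 when 1 library was left out, beside the shares of all genes given above. The libraries placed by number leave 1 library each in TZG and AIA, assumed to vary like NC, so only effect sizes are given. With them the median log2 fold change of the 39 genes in TZG against NC was 0.957. Cdc45, the gene that fell, made the count of lower genes 0 with no filter on low counts and with 2 groups alone. This count was also 0 with limma on log2(FPKM + 0.1) and log2(FPKM + 1) and without C61, M8 and G48. It was 0 to 1 when 1 library was left out. In AIA against NC the count was 13 higher with DESeq2 and 0 to 3 when 1 library was left out. The median in TZG against AIA was 0.05 with the libraries placed by number, 0.85 without C61, M8 and G48 and 0.16 to 0.71 when 1 library was left out. The cause of these differences was not tested.

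The following log2 fold changes changed sign. In AIA against NC, Rfc5 was -0.0013 with no filter and -0.045 to 0.051 with 1 library left out, and Gins2 was 0.0446 and 0.0396 on log2(FPKM + 0.1) and log2(FPKM + 1) and -0.18 to 0.0802 with 1 library left out. In TZG against NC, Rfc1 was 0.058 and 0.054 on those scales, 0.096 with the libraries placed by number, 0.10 without C61, M8 and G48, and -0.064 to 0.077 with 1 library left out. In TZG against AIA with the libraries placed by number, the value was -0.023 for Mcm2, -0.12 for Mcm5, -0.12 for Mcm7, -0.025 for Gins4, -0.23 for Pola1, -0.14 for Prim1, -0.20 for Pole, 0.066 for Rfc1, -0.025 for Rfc2, -0.0044 for Rfc5, -0.099 for Rrm1, -0.0803 for Tyms, -0.065 for Chaf1a and -0.21 for Chaf1b. Mcm10 was 0.41 without C61, M8 and G48. With 1 library left out the ranges in TZG against AIA were -0.0495 to 0.58 for Mcm7, -0.025 to 0.35 for Pola1, -0.081 to 0.30 for Prim1, -0.097 to 0.69 for Pole, -0.13 to 0.016 for Rfc1, -0.0398 to 0.37 for Rfc2, -0.12 to 0.24 for Tyms, -0.28 to 0.39 for Mcm10, -0.0063 to 0.60 for Cdt1, -0.25 to 0.87 for Ccne1, -0.00301 to 1.10 for Cdc6 and -0.0039 to 0.27 for Lig1.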

Other observations

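E2f1 has no row, and RefSeq places Necab3 next to it. Necab3 stood at 15.1, 30.9 and 13 CPM in TZG libraries, 8.87, 19 and 14.2 CPM in AIA libraries and 9.64, 11.7 and 5.91 CPM in NC libraries, with a log2 fold change of 1.11 ± 0.41 in TZG against NC (edgeR adjusted p = 0.12). Whether reads of E2f1 were counted there was not tested. The neighbour on the other side, Pxmp4, stood at -0.01 ± 0.17 (adjusted p = 0.97).

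The promoters of the mitosis genes held other words. Of 11 with an entry, 0 held an E2F word and 7, or 63.6%, held TTTGAA on either strand, against 18.1% of all promoters and 9.09% of the promoters of the replication genes. Of 43 other replication genes with an entry, 14, or 32.6%, held an E2F word and 10, or 23.3%, held TTTGAA.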
